A study of Mus musculus with 2 samples.

Results

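Genes of the bone morphogenetic protein (BMP) pathway were followed in 2 mouse libraries, 1 made from intact blastocysts and 1 from isolated inner cell masses (ICMs), both from E3.75 embryos (the stage as labelled). The 10 genes described were the ligand gene Bmp4, the receptor genes Bmpr1a and Bmpr2, the SMAD genes Smad1, Smad5, Smad6 and Smad7, and the target genes Id1, Id2 and Id3. They were taken by symbol from a deposited table of 19559 genes, and each symbol matched 1 row. B6CBAF1 females crossed to CD-1 males had given the embryos of both groups, and the labels name no mutation or treatment for either group. The blastocyst at this stage has an outer epithelium, the trophectoderm, around a cavity and the ICM, made up of early epiblast and primitive endoderm cells. The ICMs had been isolated by immunosurgery, in which antibody and complement lyse the outer cells. The sources used here do not say how many embryos each library represents.

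BMP ligands are secreted dimers that bring together type I and type II receptor kinases at the cell surface. The type II receptor phosphorylates the type I receptor, which phosphorylates SMAD1 and SMAD5, and these enter the nucleus with the shared partner SMAD4 and bind near target genes. The ID genes are well-known direct targets in many cells, and their products bind E proteins and keep them from DNA. SMAD6 and SMAD7 are inhibitory SMADs that damp the pathway and are often induced by it.

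The listed genes held 9271198 reads in the whole-blastocyst library and 4125479 in the ICM library. Levels are RPKM, that is reads per kilobase of gene scaled to a library total. A difference is log2((ICM RPKM + 1)/(whole-blastocyst RPKM + 1)), which understates the change of low genes, and a gene was counted as higher or lower in the ICM at a difference of at least 1 or at most -1 (2-fold). With 1 library per group there was no replicate and no test, so each comparison is between 2 libraries and not between conditions. The intervals are 95% exact (Clopper-Pearson) limits that cover counting error only. Over the 8981 genes with an RPKM of at least 1 in either library the median difference was -0.84, so most genes were lower in the ICM library. Centred values are relative to the shift of -0.66 over 3013 genes with an RPKM of at least 5 in both libraries, and centring multiplies every ICM-to-blastocyst ratio by 1.58.

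The labelled tissues were set against marker genes. All 7 trophectoderm markers were lower in the ICM by at least 2-fold (6 after centring), and their summed RPKM was 1627 in whole blastocysts and 47.8 in the ICM, which is 2.94%. Krt18, a keratin gene, held most of that sum (1418 and 29.4), and the other 6 markers summed to 209.0 and 18.4, which is 8.79%. Of 6 epiblast markers 4 were higher in the ICM by 2-fold or more, and Sox2 and Prdm14 had differences under 1 (all 6 were past 2-fold after centring). Without the pseudocount the RPKM ratio of Prdm14 was 4.12 (2.37 to 7.54) and that of Sox2 was 1.46. The summed RPKM of the 6 epiblast markers was 25.3 and 195.7, of which Tdgf1, the co-receptor gene Cripto, held 21.5 and 170.4. Of 6 primitive endoderm markers 5 were at least 2-fold higher, and the summed RPKM of the 6 was 37.4 and 142.3. Gata6, the exception, had 31.2 and 22.7 and held most of the whole-blastocyst sum. Pdgfra, with 2.29 and 68.1, was the largest part of the ICM sum. Of 6 mesenchyme markers only Vim (7 and 289 reads) and Thy1 (6 and 351 reads) reached an RPKM of 1, whereas the collagen genes Col1a1, Col1a2 and Col3a1 had at most 1 read in either library. Of 6 cumulus and uterine markers the summed RPKM was 44.1 in whole blastocysts and 3.83 in the ICM, with no read of Amh in either library. Cyp11a1 (324 and 0 reads) and Wfdc2 (158 and 7 reads) held most of the whole-blastocyst sum, with an RPKM of 21.9 and 20.5 there. Star also passed an RPKM of 1 in whole blastocysts, with 1.65 there and 0.501 in the ICM. Cyp19a1 of this list, the aromatase gene, went the other way with 0 and 91 reads, and its RPKM of 2.25 was most of the ICM sum. Of 5 blood and immune markers the summed RPKM was 3.78 and 0.410, with no read of Hbb-b1 or Lyz2. Cd68, with 22 and 2 reads, held most of both sums (3.67 and 0.397). In bulk libraries, fewer cells of a type and less RNA per cell cannot be told apart.

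The pathway genes went in both directions. Of the 10 genes, 9 had a read and 7 reached an RPKM of 1 in at least 1 library. In the ICM library Bmp4 and Id3 were higher by 2-fold or more, Id2, Smad7 and Bmpr2 were lower by 2-fold or more, and Bmpr1a and Smad1 were within 2-fold. The background over all 8981 genes was 8.96% for the higher and 44.0% for the lower side, so 3 of 7 lower genes is near the background share. After centring the same 5 genes were past 2-fold, against a background of 16.9% higher and 20.5% lower. Bmp4, Id3, Bmpr2 and Smad7 reached the minimum RPKM in 1 library only, which fixed the direction of their difference but not its size. Id1 and Smad5 stayed under the minimum RPKM, and Smad6 had no read in either library.

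**Figure D1:**
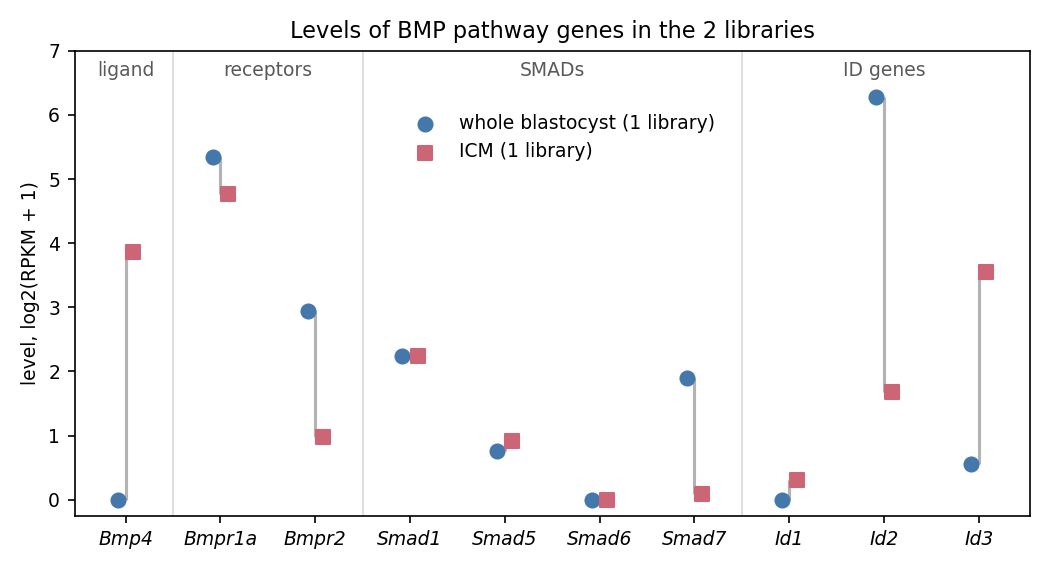
Level of each of the 10 genes as log2(RPKM + 1) in the whole-blastocyst library (circles) and the ICM library (squares), 1 library each, ordered from ligand to targets. Bmp4 and Id3 are high in the ICM library alone, Id2 is the highest gene of the set in whole blastocysts, and Smad6 lies at 0 in both.

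Sequences just upstream of Bmp4, Id2 and Id3 are shown because these 3 genes had the largest differences in the set on the log2(RPKM + 1) scale, Id2 in the direction opposite to the others. They come from RefSeq promoters of assembly GRCm38.p6, which had entries for 8 of the 10 genes, and the deposited table itself gives no positions. Each line holds the 250 bases that end just before the annotated start, 5′ to 3′ on the gene's strand. Capitals mark 2 motifs searched on both strands, the GC-rich SMAD motif GGCGCC, which is its own reverse complement, and the SMAD-binding element CAGAC, which reads GTCTG on the other strand. The motifs do not overlap each other in these windows.
Bmp4 (chr14:46390670-46390919, minus strand): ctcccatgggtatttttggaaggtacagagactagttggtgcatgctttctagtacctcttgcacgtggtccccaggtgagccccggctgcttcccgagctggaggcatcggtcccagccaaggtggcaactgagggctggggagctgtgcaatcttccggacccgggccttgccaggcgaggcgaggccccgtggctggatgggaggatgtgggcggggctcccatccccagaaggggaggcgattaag
Id2 (chr12:25096093-25096342, minus strand): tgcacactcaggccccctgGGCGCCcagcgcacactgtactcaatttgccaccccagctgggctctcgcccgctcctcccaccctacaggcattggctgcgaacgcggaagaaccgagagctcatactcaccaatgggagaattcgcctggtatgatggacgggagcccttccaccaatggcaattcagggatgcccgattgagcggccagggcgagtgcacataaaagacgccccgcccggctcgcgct
Id3 (chr4:136143572-136143821, plus strand): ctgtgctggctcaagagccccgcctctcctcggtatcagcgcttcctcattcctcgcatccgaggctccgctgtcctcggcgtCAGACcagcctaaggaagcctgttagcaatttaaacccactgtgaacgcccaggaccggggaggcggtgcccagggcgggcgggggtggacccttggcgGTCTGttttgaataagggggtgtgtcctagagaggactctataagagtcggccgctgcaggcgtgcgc

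The Id2 window holds 1 GGCGCC, which begins at position -231 from the annotated start, and no CAGAC on either strand. In the Id3 window CAGAC occurs 2 times, at positions -167 and -68, and GGCGCC does not occur. Neither motif is in the Bmp4 window. Among the other members with entries, GGCGCC was also in a window of Bmpr2, Bmpr1a and Smad5, and CAGAC in a window of Smad5. Smad1 and Smad6 had neither motif. Of all 32851 RefSeq promoter windows of this length, 9.59% hold GGCGCC and 42.2% hold CAGAC on either strand. These shares are not matched for base content: G and C made up 62.8% of the Id2 and Id3 windows, and the median over all windows was 52.4%. A match describes the letters and is no evidence of binding, and the absence of one concerns this window alone.

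Bmp4, the only ligand gene of the set, had no read in whole blastocysts and 608 reads in the ICM, an RPKM of 0 and 13.5. A count of 0 allows up to 3 reads, or an RPKM of 0.056. Against that floor Bmp4 was at least 241-fold higher in the ICM library. The lower limit of the exact 95% interval, which bounds a count of 0 more widely than 3 reads, was 195-fold. The ICM library is high and the whole-blastocyst library is empty, although the whole blastocyst contains its ICM. Such a pattern was uncommon at this level, since of 1029 genes with an ICM RPKM from 10 to 20 only 7 (0.680%) had no whole-blastocyst read. Of 6764 genes without a whole-blastocyst read, 3 had as many as 608 reads in the ICM, namely Bmp4, Flrt3 (2189) and Spsb1 (611). On the scale of log2(RPKM + 1) over the 2 libraries, the nearest named genes were Plcb4 (0 and 50 reads), Nr0b1 (0 and 337) and Lrrc3 (11 and 1896). Plcb4 came to an ICM RPKM of 12.9 with 50 reads, so nearness in RPKM rests on gene lengths that the sources used here do not give. In the GENCODE M21 annotation the Bmp4 locus is overlapped on the other strand by Gm15217 and Gm15222. Gm15217 is listed with no read in either library. The sources used here do not say whether strand was used, so reads of Bmp4 and of an overlapping antisense transcript cannot be told apart.

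Gdf3, which encodes a ligand of the same superfamily that is known from pluripotent cells, was also higher in the ICM, with 18 and 157 reads. Its RPKM was 0.231 in whole blastocysts and 2.39 in the ICM, giving a ratio of 10.4 (6.34 to 17.9). On the same side past 2-fold were 4 of 6 epiblast markers and 5 of 6 primitive endoderm markers, beside 8.96% of all genes. Of these markers Nanog, Fgf4, Nr0b1, Gata4 and Sox17, like Gdf3 itself, reached the minimum RPKM in the ICM only and could not be lower. The part of either marker list in the Bmp4 and Gdf3 values was not tested. The other ligand genes examined were low or without reads. Of 15 further ligand genes 8 had no read in either library, Bmp2, Bmp5 and Bmp7 among them, and Gdf3 alone reached an RPKM of 1. Bmp8b (6 and 43 reads) and Bmp6 (0 and 11 reads) stayed below it. Bmp15 and Gdf9, ligand genes known from the oocyte, had 79 and 36 reads in whole blastocysts and 33 and 0 in the ICM.

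The type I receptor gene Bmpr1a was abundant in both libraries. It had 6398 reads in whole blastocysts and 3593 in the ICM, with an RPKM of 39.5 and 26.3, which placed it at rank 958 and rank 745 of the listed genes. The ratio of ICM to whole blastocyst was 0.667 (0.640 to 0.695) as deposited and 1.05 (1.01 to 1.10) after centring, so the side of 1 on which it lies was set by the scaling between the libraries. In GENCODE M21 an antisense gene, Gm17110, overlaps the Bmpr1a locus.

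Bmpr2, the type II receptor gene specific to BMP ligands, had 188 reads in whole blastocysts and 23 in the ICM. Its RPKM was 6.69 and 0.972, which is 6.89-fold lower in the ICM (4.45 to 11.1) and 4.36-fold lower after centring. The ratio between Bmpr1a and Bmpr2 within a library does not depend on the scaling between libraries. It was 4.59 times as high in the ICM as in whole blastocysts (2.96 to 7.43). In all, 8 pairs of genes were compared in this way.

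Levels of Bmpr2 should not be set against those of other genes. RPKM divides by a gene length that the sources used here do not give, and 1 unit of RPKM stood for 28.1 whole-blastocyst reads of Bmpr2 but 162.1 reads of Bmpr1a. The longest coding transcripts in GENCODE M21 are 12899 bases for Bmpr2 and 5956 bases for Bmpr1a. Relative to the median over 12038 matched genes, the length behind the Bmpr2 RPKM was 0.117 of what its transcript would give, at percentile 1.79. For the other members with a read this ratio lay between 0.893 (Smad1) and 1.85 (Smad5). The ICM-to-blastocyst ratio of a gene is free of its length, but the place of Bmpr2 among the genes past 2-fold is not. At the length of its transcript, a choice made after seeing the data, its RPKM would be 0.784 and 0.114, under the minimum, and 2 in place of 3 of the 10 genes would be lower.

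Other receptor genes were low in the ICM library as well. Of 10 further receptor and co-receptor genes 3 reached an RPKM of 1, and all 3 were at least 2-fold lower, beside 44.0% of all genes. Of these, Acvr1 and Acvr2b reached the minimum in whole blastocysts only and could not be higher. Acvr2a, a type II receptor gene shared by activins and BMPs, went from 2199 to 500 reads and an RPKM of 13.3 to 3.59, a difference of -1.64 (-0.98 after centring). Acvr2b, its paralog, had 73 whole-blastocyst reads and no ICM read, which at a floor of 3 reads is at least 20.5-fold lower. Acvr1, which encodes the type I receptor ALK2, had 80 and no reads, at least 22.5-fold lower. After centring Acvr2b alone was past 2-fold. The length behind its RPKM was also short, at 0.182 of what its transcript would give. At that transcript's length its difference would be -1.16, or -0.50 after centring, which ends this call. With transcript lengths Acvr2a would instead pass 2-fold after centring, at -1.06 (-1.72 before centring). The ratio of Bmpr1a to Acvr2a was 2.47 times as high in the ICM (2.22 to 2.75). The other type I receptor genes were near absent, Bmpr1b with 7 and 3 reads and Acvrl1 with none.

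**Figure D2:**
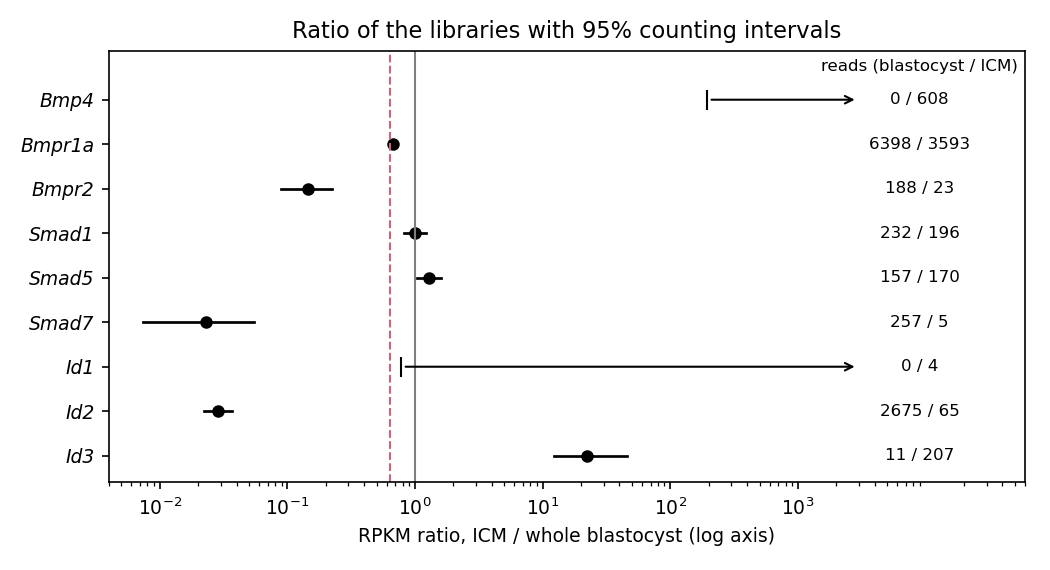
RPKM ratio of the ICM to the whole-blastocyst library (log axis) for the 9 genes with a read, with exact 95% counting intervals; arrows start at the lower limit where the whole blastocyst had no read. The solid line marks a ratio of 1 and the dashed line the shift over the 3013 genes used for centring; Bmp4 and Id3 lie far to the right, Id2, Smad7 and Bmpr2 to the left, and Bmpr1a, Smad1 and Smad5 near the 2 lines.

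The SMADs that receptors of the BMP branch phosphorylate were within 2-fold between the libraries as deposited. Smad1 had 232 reads and an RPKM of 3.70 in whole blastocysts and 196 reads and 3.71 in the ICM, giving a ratio of 1.003 (0.825 to 1.22), or 1.58 after centring. Smad5 had 157 and 170 reads and an RPKM of 0.692 and 0.889, a ratio of 1.29 (1.03 to 1.61), or 2.03 after centring. Both genes therefore lay above the general shift, and neither passed 2-fold as deposited. The ratio of Smad1 to Smad5 was 0.780 times as high in the ICM as in whole blastocysts, with an interval of 0.579 to 1.05 that includes 1. Smad1 and Smad5 are close paralogs, and how reads with several matches were counted is unknown here. Smad9, the third SMAD of this branch, had no read in either library.

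Smad4, the partner shared by the BMP and the activin branch, was lower in the ICM, with 763 and 203 reads and an RPKM of 11.6 and 3.68. That is a difference of -1.43, or -0.78 after centring. The ratio of Smad1 to Smad4 was 3.17 times as high in the ICM as in whole blastocysts (2.47 to 4.09). The SMADs of the activin and Nodal branch were within 2-fold, Smad2 with an RPKM of 27.5 and 16.4 and Smad3 with 1.73 and 2.54. At GENCODE transcript lengths these would be 9.25 and 5.53 for Smad2 and 2.97 and 4.38 for Smad3. After centring Smad3 was past 2-fold, at a difference of 1.04.

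The inhibitory SMADs were near absent from the ICM library. Smad7 had 257 reads in whole blastocysts and 5 in the ICM, an RPKM of 2.71 and 0.063. It was 43.3-fold lower in the ICM (18.3 to 134) and 27.4-fold lower after centring, while its difference on the scale with a pseudocount was only -1.80 because both levels are low. Smad1 and Smad7 were at like levels in whole blastocysts, with an RPKM ratio of 1.37, and stood at 59.3 in the ICM. This ratio of Smad1 to Smad7 was 43.3 times as high in the ICM (17.8 to 137.1). Relative to the trophectoderm transcription factor gene Cdx2, Smad7 was at 0.297 times its whole-blastocyst ratio in the ICM (0.094 to 0.722). All 7 trophectoderm markers were lower in the ICM library with Smad7 (6 after centring), beside 44.0% of all genes (20.5% after centring). Among them Elf5, at 0 ICM reads, reached the minimum in whole blastocysts only and could not be higher. The part of the trophectoderm markers in the Smad7 and Bmpr2 values was not tested.

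Id2 and Id3, target genes with products of the same family, went in opposite directions. Id2 had 2675 reads and an RPKM of 76.5 in whole blastocysts, rank 428 of all listed genes, and 65 reads and an RPKM of 2.21 in the ICM, rank 5206. It was 34.7-fold lower in the ICM (27.1 to 45.1) and 22.0-fold lower after centring. Id3 had 11 reads and an RPKM of 0.477 in whole blastocysts and 207 reads and 10.7 in the ICM, rank 9301 and rank 1942. It was 22.3-fold higher in the ICM (12.2 to 45.4). Id1, often the most responsive of the family, had no read in whole blastocysts and 4 in the ICM. The lower limit of its ratio was 0.784 as deposited and 1.24 after centring, so whether Id1 differed beyond counting error was set by the scaling.

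The makeup of the ID transcripts therefore differed between the libraries. Id2 made up 99.4% of the summed RPKM of Id1, Id2 and Id3 in whole blastocysts and 16.8% in the ICM, whereas Id3 made up 0.620% and 81.3%. As shares of reads, Id2 had 2675 of 2686 (99.6%, 99.3 to 99.8) and 65 of 276 (23.6%, 18.7 to 29.0). The summed RPKM of the 3 genes was 77.0 in whole blastocysts and 13.1 in the ICM. The ratio of Id3 to Id2, which is free of the scaling between libraries, was 765 times as high in the ICM (395 to 1634).

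**Figure D3:**
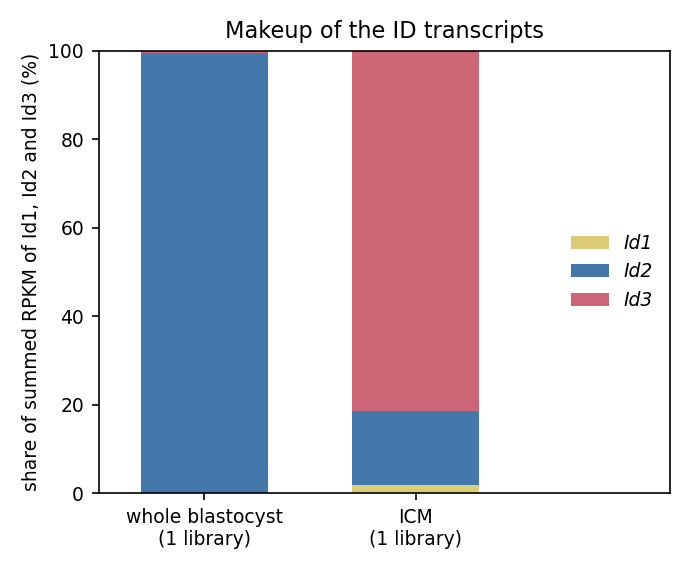
Share of the summed RPKM of Id1, Id2 and Id3 (%) taken by each gene in the whole-blastocyst and the ICM library, 1 library each, with no error bars because there are no replicates. Id2 fills nearly the whole bar of the blastocyst and Id3 most of the bar of the ICM.

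Id2 was lower in the ICM library together with the trophectoderm markers. Its ICM level was 0.029 of its whole-blastocyst level, below 5 of the 7 markers, whose ratios ran from 0.058 (Krt8) to 0.118 (Tead4). Krt18 was at 0.021, and Elf5 had 77 reads and none. Relative to Cdx2 the ratio of Id2 was 0.371 times as high in the ICM (0.270 to 0.507), so Id2 was lower than Cdx2 by more than counting error. Of 515 genes with 2000 to 3500 whole-blastocyst reads, 8 (Id2 included) had an ICM-to-blastocyst ratio as low as that of Id2. The nearest named genes by level in the 2 libraries were Ank, which encodes a membrane pyrophosphate transport protein (RPKM of 59.3 and 2.30), Dab2, an endocytic adaptor gene (59.6 and 2.79), and Ggta1, a glycosyltransferase gene (56.9 and 2.65). For Id3 they were Cd200 (0.437 and 10.5), Fgf10 (0.489 and 10.3) and Eif2c1 (current symbol Ago1, 0.411 and 9.77). Eif2c1 had only 2 and 40 reads, so its nearness also rests on the gene length behind RPKM. The part of the trophectoderm markers in the Id2 value was not tested, nor was that of the epiblast and primitive endoderm markers in the Id3 value.

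The binding partners of the ID proteins were present at low to moderate levels. Tcf12, an E protein gene, had 339 and 636 reads and an RPKM of 3.26 and 7.27, a ratio of 2.23 (1.95 to 2.55). Its difference of 0.96 was just under the threshold and was 1.61 after centring. The gene of the E2A proteins (listed under its older symbol Tcfe2a, current symbol Tcf3) had 25 and 2 reads, and Tcf4 had 70 and 153, all below an RPKM of 1. Id4 had no read.

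Of 8 other known targets of BMP signalling, 2 reached an RPKM of 1, and both were at least 2-fold lower in the ICM. This is beside 44.0% of all genes lower (20.5% after centring). Of the 2, Gata2 reached the minimum in whole blastocysts only and could not be higher. Msx2, a homeobox gene, had 678 reads and an RPKM of 8.80 in whole blastocysts and 92 reads and 1.42 in the ICM, 6.21-fold lower (3.94-fold after centring). Gata2, also a transcription factor of the trophoblast, had 870 and 39 reads and an RPKM of 10.5 and 0.560, 18.8-fold lower. Bambi, a decoy receptor gene that BMP signals induce, was on the other side with 35 and 116 reads, a ratio of 3.93 (2.68 to 5.92), but its RPKM of 0.176 and 0.692 was below the minimum. Hey1, a Notch and BMP target gene, had 14 and 13 reads and a ratio of 1.10 (0.477 to 2.53). Msx1, Dlx3, Dlx5 and Tbx2 had no read in either library.

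Secreted antagonists of BMPs were rare in both libraries. Of 17 antagonist genes 8 had no read at all, Nog and Chrd among them, and 3 reached an RPKM of 1. Twsg1, whose product binds BMPs together with chordin, was within 2-fold with 399 and 379 reads (RPKM of 2.61 and 2.94). Fstl3, a follistatin-like gene, had an RPKM of 2.47 and 1.63. Dand5, a gene of the Cerberus and Dan family, had 390 reads and an RPKM of 7.68 in whole blastocysts and no read in the ICM, which is at least 109.5-fold lower at a floor of 3 reads. Cer1 of the same family had 1 and 2 reads.

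Genes of ligand processing were lower in the ICM library. Of 7 genes 5 were listed and 3 reached an RPKM of 1, all at least 2-fold lower (beside 44.0% of all genes) and none past 2-fold after centring. All 3 reached the minimum in whole blastocysts only and could not be higher. Furin, a convertase that cleaves BMP precursors, had an RPKM of 3.69 and 0.502, 7.35-fold lower in the ICM. Pcsk7, a related convertase gene, had 3.72 and 0.653. The metalloprotease gene Tll1 had 84 and no reads.

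Genes that turn SMADs over lay on the lower side or within 2-fold. Of 10 with an RPKM of at least 1, 6 were at least 2-fold lower and 4 within 2-fold (4 and 6 after centring), and none was higher. This is beside 44.0% of all genes lower (20.5% after centring), and 3 of the 10 reached the minimum in whole blastocysts only. The ubiquitin ligase gene Smurf1 went from an RPKM of 2.90 to 0.490, whereas its paralog Smurf2 had 22.5 and 20.4. At GENCODE transcript lengths, a choice made after seeing the data, Smurf1 would have 3.84 and 0.648 and Smurf2 1.94 and 1.76. Their order in whole blastocysts was therefore set by the gene length. Another ligase gene, Wwp1, had 11.1 and 2.54, and the deubiquitinase gene Usp15 44.5 and 13.4. At its transcript length Usp15 would have 4.14 and 1.25, a difference of -0.54 after centring, which ends its call there. The small phosphatase genes were among the lowest, Ctdsp1 with 7.05 and 0.203 and Ctdspl with 21.5 and 1.75. Ctdsp2 had 5.02 and 1.59. Nedd4l had 1.59 and 0.413, which is 3.84-fold lower as a ratio, but its difference with the pseudocount was only -0.87. The SMAD phosphatase gene Ppm1a (20.1 and 18.2) and the chaperone-linked ligase gene Stub1 (11.6 and 12.6) were within 2-fold.

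Of 8 nuclear partners and co-repressors with an RPKM of at least 1, 4 were at least 2-fold lower (2 after centring), 4 were within 2-fold and none was higher, which is near the background of 44.0% (20.5% after centring). The co-repressor genes Ski (RPKM of 6.59 and 2.08) and Skil (9.17 and 1.24) were lower, as were Sin3a (16.7 and 0.994) and the acetyltransferase gene Crebbp (8.40 and 2.02). Its paralog Ep300 (2.98 and 2.18), the TG-interacting factors Tgif1 (19.2 and 14.3) and Tgif2 (2.29 and 2.44), and Lemd3, an inner nuclear membrane protein gene that binds SMADs (9.07 and 8.31), were within 2-fold.

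Over the whole list of 87 further pathway genes, 85 were listed, 25 of them had no read in either library and 34 reached an RPKM of 1. Of these 34 genes, 1 was past 2-fold on the higher and 20 on the lower side, beside 8.96% and 44.0% of all genes. Of the 20 lower genes 10 reached the minimum in whole blastocysts only. Their median difference was -1.29 and that of all 8981 genes -0.84. After centring 3 were higher (Gdf3, Smad3 and Tcf12) and 10 lower, beside 16.9% and 20.5%.

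**Figure D4:**
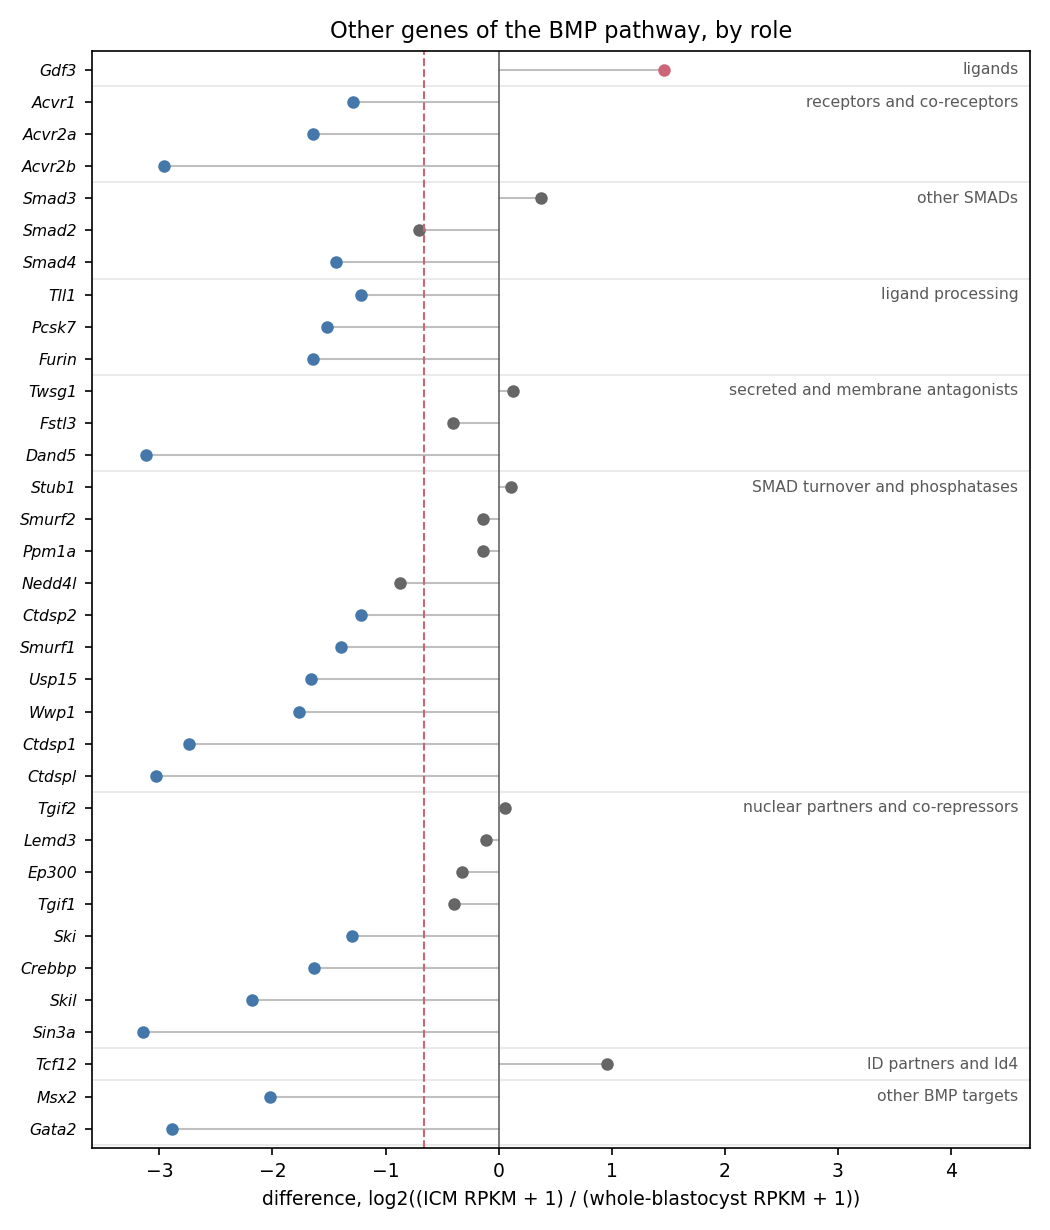
Difference between the libraries, log2((ICM RPKM + 1)/(whole-blastocyst RPKM + 1)), for the 34 further pathway genes with an RPKM of at least 1 in either library, grouped by role. The dashed line marks the shift of -0.66 over the 3013 genes used for centring; all 3 receptor and all 3 processing genes lie to its left, and Gdf3 is the 1 gene past 2-fold on the right.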

How the data were processed

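RNA had been extracted with a PicoPure kit, amplified with the NuGEN Ovation system and made into SOLiD fragment libraries, per the labels' protocols. The authors deposited 1 table with a raw read count and an RPKM value per gene and library. The submitters' processing notes name genome build mm9. For the aligner, annotation, gene lengths, strand use and multiply mapping reads, the sources used here give nothing. Dividing deposited RPKM by deposited counts gave an ICM-to-blastocyst ratio of 0.842 for the totals behind RPKM, whereas the listed counts gave 0.445. Which reads those totals held is not given.

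RPKM was compared as log2(RPKM + 1) where either library reached an RPKM of 1. Ratios of RPKM carry exact conditional 95% intervals from the counts, with the ratio of totals as offset (scipy 1.17.1), and pairs of genes carry exact conditional odds ratio intervals. Zero counts were bounded at 3 reads. Amplified reads without molecular identifiers are not independent molecules, so intervals cover counting error only. Computations were tested on counts simulated with counting error only, for well-read whole-blastocyst genes and without the pseudocount of 1. Genes with few or no whole-blastocyst reads, such as Bmp4, Id1 and Id3, were not covered by that simulation. The named genes were all 10 members, the further pathway genes with an RPKM of at least 1, and the 3 genes nearest to Bmp4, Id2 and Id3 in level, with unnamed gene models passed over. Any gene named below that RPKM was picked with its values in view. The members and lists were chosen with earlier results of these data known. Alternatives were other scalings (centring, listed reads, TPM computed from RPKM), pseudocounts, filters, an interval criterion and, added after seeing the data, GENCODE M21 transcript lengths.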

Additional observations from a re-analysis of the deposited data

How the results depend on the processing

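The counts of the 10 genes past 2-fold in each direction stayed at 2 higher and 3 lower under the alternatives run (3 other scalings, a pseudocount of 0.1, no filter, a filter of 5 RPKM and the interval criterion), except that the filter of 5 left 2 lower, as did GENCODE transcript lengths (added after seeing the data). Of the 10 genes, 5 had a higher RPKM in the ICM as deposited and with the pseudocount of 0.1, and 6 under the 3 other scalings, the added one being Bmpr1a. Of 36 values of single genes under another scaling or pseudocount, 14 moved by less than their counting interval, 22 moved by more, and none past 2-fold changed sign. In the further pathway list the 1 higher gene became 3 with centring, 3 with scaling to the listed reads, 5 with TPM, 2 with a pseudocount of 0.1 and 0 with a filter of 5 RPKM. The 20 lower genes became 10 with centring and ranged from 14 to 21 under the others. The filter of 5 leaves fewer genes. Centring, listed reads and TPM multiply each ICM-to-blastocyst ratio by 1.58, 1.89 and 1.95, and TPM values are also larger in both libraries, so that the pseudocount weighs less. No paired analysis was possible because each group has 1 library. Depth limits Smad7 (5 ICM reads), Id3 (11 whole-blastocyst reads) and Id1 (4 reads in all).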
